A study of Rattus norvegicus with 12 samples.

Results

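Hox genes encode homeodomain transcription factors that lie in 4 clusters, Hoxa, Hoxb, Hoxc and Hoxd, and are numbered by paralog group along each cluster. Genes at the low-numbered end act in anterior parts of the embryo, and genes at the high-numbered end act in posterior parts. In the female tract the posterior Hoxa genes divide the Müllerian duct into oviduct, uterus, cervix and vagina, and Hoxa10 and Hoxa11 remain in use in the adult uterus, where they are needed for implantation. HOX proteins bind DNA together with cofactors of the TALE family, the Pbx and Meis proteins.

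All genes with a name of the form Hoxa, Hoxb, Hoxc or Hoxd followed by a number were taken, which gave 23 of the 16493 genes in the data. They comprised 5 Hoxa, 7 Hoxb, 5 Hoxc and 6 Hoxd rows, each with 1 transcript. Of the 39 Hox genes known in mammals, the other 16 have no row of their name, Hoxa7, Hoxa11 and Hoxa13 among them. RefSeq now assigns the transcript in the Hoxa10 row to Hoxa11, and that in the Hoxa9 row to Hoxa7. These rows are therefore written Hoxa10 (Hoxa11) and Hoxa9 (Hoxa7). By current names Hoxa11 and Hoxa7 are analysed here, while Hoxa10, Hoxa9 and the remaining genes without a row are not. The names of the 21 others match RefSeq.

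The RNA came from uteri of Sprague Dawley rats at postnatal day 65, ovariectomized at day 50 and fed semi-purified AIN-93G diets, with corn oil for soybean oil, from day 30. The CAS group (Caseine) received casein and the SPI group (Soy) received soy protein isolate, both with infusion of the polyethylene glycol vehicle. The CAS-E2 (Caseine + E2) and SPI-E2 (Soy + E2) groups received the same diets with 17β-estradiol (E2) at 5 μg/kg/d from a subcutaneous minipump. All 4 groups thus lacked ovaries and differed in protein source and in E2. Each group had 6 uteri in 3 libraries, and each library was a pool of equal RNA from 2 uteri, so the spread given here is between pools. Libraries of 1 group were combined on the flow cell, so lane and group cannot be told apart. Levels are FPKM, which counts fragments per exon length and per mapped depth and can be compared between genes.

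The 12 libraries held 6353210 to 9862180 mapped reads, as implied by the values. Whole uterus was sequenced, and the summed RNA of some of its cell type markers differed with E2. The 9 measured epithelial markers summed to 217 to 246 FPKM in CAS and to 956 to 1652 in CAS-E2. They summed to 135 to 173 FPKM in SPI and to 561 to 2005 in SPI-E2. The 9 stromal fibroblast markers summed to 766 to 952 FPKM in CAS, 377 to 886 in CAS-E2, 792 to 938 in SPI and 301 to 733 in SPI-E2. No marker of either list was at 0 throughout. On the casein diet 6 endothelial markers summed to 85.8 to 104 FPKM without E2 and 38.2 to 56.3 with it, and 7 macrophage and leukocyte markers to 102 to 163 and 368 to 479. Replicate 1 of SPI stood apart in 4 liver markers, at 1402 FPKM against 11.4 to 241 in the other 11 libraries. In such bulk RNA, fewer cells of a type and less RNA per cell cannot be told apart. The part of cell composition in the results below was not tested.

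The Hox rows fell into a few well expressed genes and many low ones. Over all 12 libraries, 5 rows averaged at least 5 FPKM, 7 averaged from 1 to under 5, 9 averaged above 0 but under 1, and 2 were listed at 0. By that mean Hoxd9 was the highest at 18.6 FPKM, followed by Hoxa10 (Hoxa11) at 13.9, Hoxd10 at 13.1, Hoxb7 at 8.78 and Hoxb8 at 7.71. The order differed between groups. Hoxd9 led by its mean in CAS and SPI, but with E2 Hoxb7 (11.6 FPKM) was above Hoxd9 (11.1) in CAS-E2, and Hoxa10 (Hoxa11, 12.9) was above Hoxd9 (12.2) in SPI-E2, by less than the spread between pools. The ranges of Hoxa10 (Hoxa11), 6.31 to 21.6, and of Hoxd10, 7.44 to 20.0, covered nearly the same span, so these neighbours in the order did not differ beyond their spread. The ranges of Hoxb7 (3.53 to 19.5) and Hoxb8 (3.69 to 13.4) over the 12 libraries also overlapped. Within libraries, however, Hoxb7 was above Hoxb8 in every E2 pool and below it in every CAS pool. The SPI pools went both ways.

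**Figure D1:**
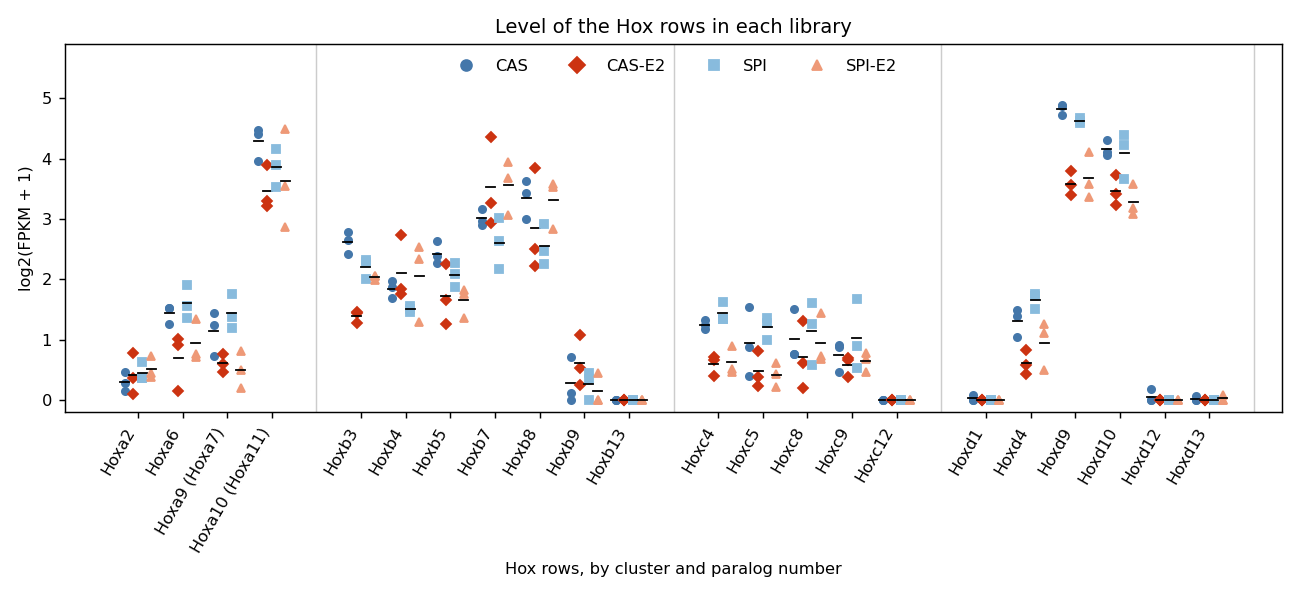
Level of 22 of the Hox rows, as log2(FPKM + 1), in each of the 12 libraries, ordered by cluster and by RefSeq paralog number. Symbols are single libraries coloured by group and black bars are group means. Hoxd9, Hoxd10, Hoxa10 (Hoxa11), Hoxb7 and Hoxb8 stand above the rest, and the 4 rows of paralog groups 12 and 13 lie at or near 0.

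Position along the cluster was described by the rank of each row's mean level against its RefSeq paralog number. Spearman's rho was 0.90 over the 5 Hoxa rows, -0.43 over the 7 Hoxb rows, -0.90 over the 5 Hoxc rows and 0.03 over the 6 Hoxd rows. These rows share their libraries and many known genes have no row, so the values are descriptions only. In the Hoxa cluster the levels ran from 0.353 FPKM for Hoxa2, over 1.36 for Hoxa6 and 0.996 for Hoxa9 (Hoxa7), to Hoxa10 (Hoxa11). In the Hoxd cluster it peaked in the middle, at Hoxd9 and Hoxd10. At the posterior end, Hoxb13, a gene of caudal structures and prostate, and Hoxc12 were listed at 0 in all 12 libraries. Hoxd12 was above 0 in 1 library and Hoxd13, a gene of limb and genital tubercle, in 2, at no more than 0.133 and 0.0592 FPKM. At the anterior end Hoxd1 was above 0 in 1 library.

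**Figure D2:**
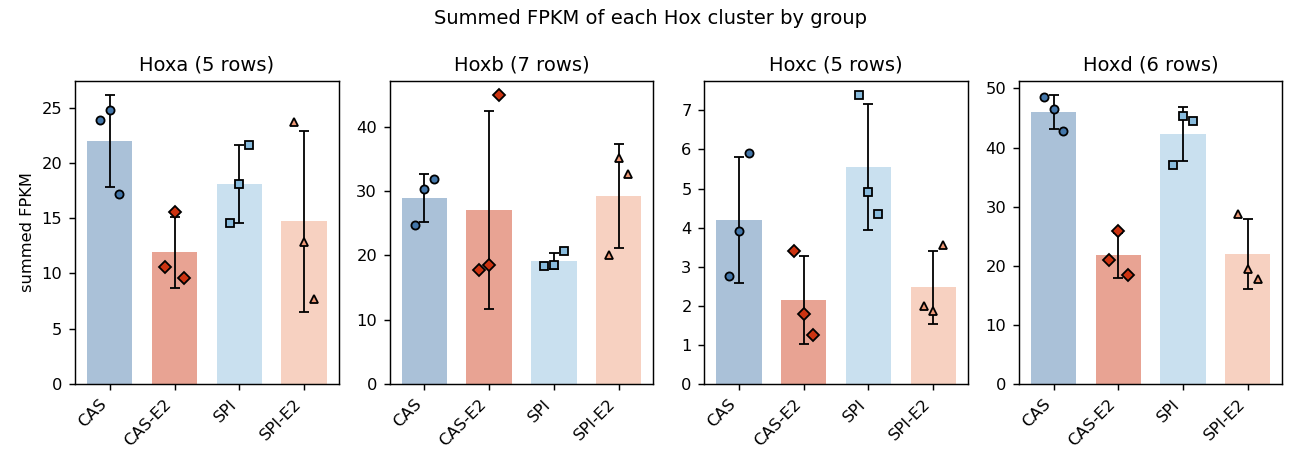
Summed FPKM of the rows of each Hox cluster by group, with bars for the mean of 3 libraries, error bars for the SD and symbols for single libraries. The Hoxd sum is lower in both E2 groups than in either vehicle group, with no overlap, and the Hoxb sum is not, being highest in replicate 3 of CAS-E2.

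Summed by cluster, the Hoxd rows were the most abundant without E2, at 45.9 ± 2.87 FPKM in CAS and 42.3 ± 4.64 in SPI (SD, n = 3 pools here and below). With E2 they summed to 21.7 ± 3.79 FPKM in CAS-E2 and 22.0 ± 5.87 in SPI-E2. The lowest library without E2 had 37.0 FPKM and the highest with E2 had 28.7, so the groups did not overlap. The Hoxb sum went from 28.9 ± 3.74 FPKM in CAS to 27.0 ± 15.4 in CAS-E2, and from 19.2 ± 1.25 in SPI to 29.2 ± 8.05 in SPI-E2. The Hoxa sum was 22.0 ± 4.14, 11.9 ± 3.19, 18.1 ± 3.49 and 14.7 ± 8.18 FPKM in CAS, CAS-E2, SPI and SPI-E2, and the Hoxc sum was 4.19 ± 1.60, 2.15 ± 1.12, 5.55 ± 1.61 and 2.47 ± 0.93. As a share of all Hox FPKM, the Hoxd rows made up 45.5% ± 2.69 in CAS and 35.5% ± 9.34 in CAS-E2, and 49.6% ± 2.33 in SPI and 31.9% ± 5.80 in SPI-E2. The Hoxb rows made up 28.7% ± 3.89, 41.4% ± 16.7, 22.6% ± 1.25 and 43.5% ± 14.4 of it, in the order CAS, CAS-E2, SPI, SPI-E2. No test was run on these sums.

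The question put to each comparison was which Hox genes differed with E2 and with dietary protein. Differences were fitted with limma on log2(FPKM + 1) over the 10279 genes that reached 1 FPKM in at least 3 libraries, with Benjamini-Hochberg adjustment over all of them. A difference passed the test at an adjusted p under 0.05. A stricter rule also asked for a 2-fold difference on the fitted scale, which understates the change of low genes. Of the 23 Hox rows, 14 were tested and 9 were too low (among them Hoxa2, Hoxb9, Hoxb13, Hoxc9, Hoxc12, Hoxd1, Hoxd12 and Hoxd13). The highest value of any of those 9 in a library was 2.21 FPKM, for Hoxc9. Of the 14 tested rows, 8 reached 1 FPKM in all 12 libraries. Hoxa9 (Hoxa7), Hoxc4 and Hoxc5 passed the filter through libraries without E2 alone, so a difference in them was in part built into the filter.

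On the casein diet, Hoxb3 and Hoxd9 were more than 2-fold lower with E2, and Hoxa6, Hoxb5, Hoxc4, Hoxd4 and Hoxd10 were lower by less than that on the fitted scale. Thus 7 of the 14 tested rows were lower in CAS-E2 than in CAS, against 22.0% of all 10279 genes, and 0 of 14 were higher, against 17.1% (9 lower and 0 higher at an unadjusted p under 0.05). Hoxc4, Hoxc5 and Hoxa9 (Hoxa7) passed the filter through libraries without E2 alone. The place of Hoxc4 among the 7, and of these rows in the median below, was thus in part built in. So was that of Hoxc4 and Hoxa9 (Hoxa7) among the 9, and of Hoxc4 among the 8 rows without overlap below. By the 2-fold rule 2 of 14 were lower, against 6.37% of all genes. The median log2 difference was -0.68 over the 14 rows and -0.07 over all genes. All 3 CAS-E2 pools lay below all 3 CAS pools for 8 of the 14 rows, against 31.2% of all genes, and above them for 0, against 23.9%. Of the 8 rows measured at 1 FPKM or more throughout, 4 were lower by the adjusted p (Hoxb3, Hoxb5, Hoxd9 and Hoxd10). The share among all genes at that level was not computed, so this count has no background beside it.

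On the soy diet, Hoxd4, Hoxd9, Hoxd10, Hoxc4, Hoxc5 and Hoxa9 (Hoxa7) were lower with E2. These 6 of 14 rows compare with 6.57% of all genes lower in SPI-E2 than in SPI, and 0 rows were higher, against 21.1% (7 lower and 1 higher at an unadjusted p under 0.05). Hoxc4, Hoxc5 and Hoxa9 (Hoxa7) passed the filter through libraries without E2 alone. Their place in these counts, in the median and among the 8 rows without overlap below was thus in part built in. By the 2-fold rule 0 of 14 were lower, against 1.86% of all genes, and 0 reached 2-fold at an unadjusted p under 0.05. By that rule 2 rows were lower with median-ratio scaling of the libraries and 3 with upper-quartile scaling, against 295 and 447 of the 10279 genes. By the adjusted p alone these scalings gave 7 and 9 lower rows, against 1295 and 1957 of all genes. The main fit had 675 of all genes lower, so the background share on soy depended on the scaling. The median log2 difference was -0.55 over the 14 rows and 0.11 over all genes. All SPI-E2 pools lay below all SPI pools for 8 rows, against 11.2% of all genes, and above them for 1, Hoxb7, against 30.1%. Of the rows at 1 FPKM or more throughout, 2 were lower (Hoxd9 and Hoxd10), again without a share of all genes at that level. Hoxc4, Hoxd4, Hoxd9 and Hoxd10 passed the test on both diets.

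**Figure D3:**
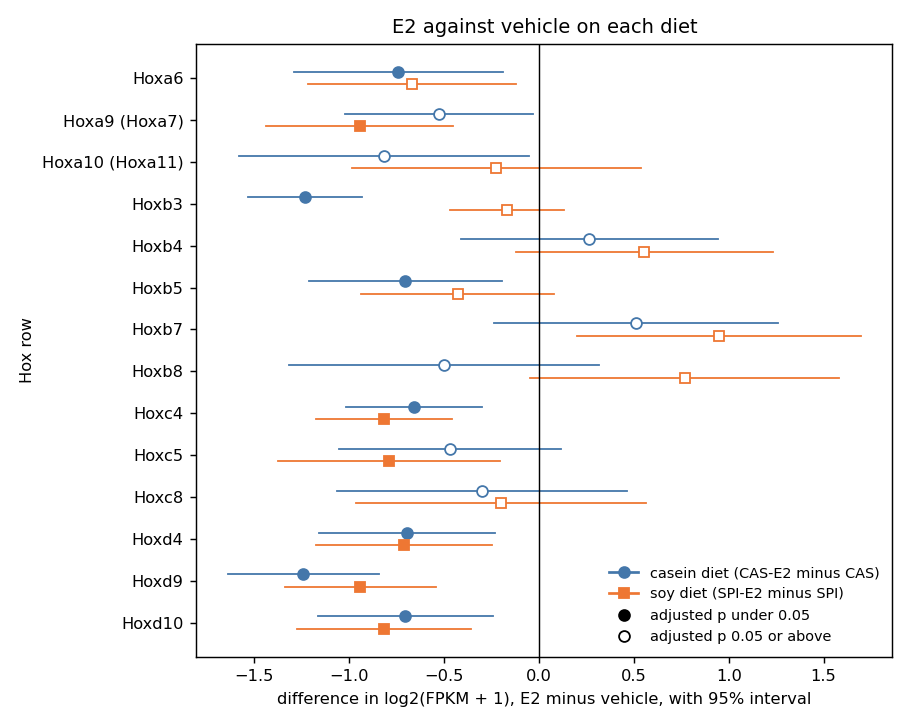
Difference in log2(FPKM + 1) between E2 and vehicle for the 14 tested Hox rows, with 95% intervals from limma, on the casein diet (circles) and the soy diet (squares). Filled symbols passed an adjusted p under 0.05. The filled symbols all lie below 0, and Hoxb4 and Hoxb7 lie above 0 on both diets without passing.

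The promoters of genes that were lower with E2 on both diets are shown because the data put these genes together. RefSeq promoters were found for 11 of the 23 rows, and the 250 bases before the start are given for Hoxd10, Hoxd9, Hoxd4 and Hoxc4, in the order 5′ to 3′ on build GRCr8. Capitals mark matches, read on either strand, to AGGTCA, one arm of an estrogen response element, to the CCAAT box, or to the GC box GGGCGG. A match on the other strand appears as its reverse complement.
Hoxd10 (chr3:80001697-80001946, + strand): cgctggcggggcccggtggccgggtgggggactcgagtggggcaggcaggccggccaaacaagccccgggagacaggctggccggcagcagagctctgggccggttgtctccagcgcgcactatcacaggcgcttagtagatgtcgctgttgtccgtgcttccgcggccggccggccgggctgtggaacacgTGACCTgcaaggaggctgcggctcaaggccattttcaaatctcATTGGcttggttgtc
Hoxd9 (chr3:80007756-80008005, + strand): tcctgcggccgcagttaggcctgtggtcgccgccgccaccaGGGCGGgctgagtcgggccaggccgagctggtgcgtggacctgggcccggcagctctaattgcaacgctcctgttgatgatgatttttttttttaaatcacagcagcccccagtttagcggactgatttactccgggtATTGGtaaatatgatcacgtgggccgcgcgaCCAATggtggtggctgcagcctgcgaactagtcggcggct
Hoxd4 (chr3:80021636-80021885, + strand): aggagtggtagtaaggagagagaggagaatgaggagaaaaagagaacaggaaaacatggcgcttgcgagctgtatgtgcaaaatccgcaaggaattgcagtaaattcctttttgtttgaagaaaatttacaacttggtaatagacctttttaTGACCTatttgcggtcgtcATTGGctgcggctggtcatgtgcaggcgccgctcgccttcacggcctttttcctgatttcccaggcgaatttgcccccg
Hoxc4 (chr7:136048809-136049058, + strand): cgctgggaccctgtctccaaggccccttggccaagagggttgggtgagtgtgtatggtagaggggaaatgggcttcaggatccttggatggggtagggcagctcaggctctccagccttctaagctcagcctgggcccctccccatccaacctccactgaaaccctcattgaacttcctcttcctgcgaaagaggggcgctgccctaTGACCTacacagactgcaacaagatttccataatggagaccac

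AGGTCA was found in Hoxd10, Hoxd4 and Hoxc4, in 3 of the 11 promoters, and in 14.1% of all 33469 RefSeq promoters over the same 250 bases. CCAAT was found in 8 of 11 and in 34.0% of all, and GGGCGG in 5 of 11 and in 30.5% of all. The full consensus estrogen response element was in 0 of 11 and in 0.0239% of all. TATAAA was in 1 of 11 (12.9% of all) and TGATNNAT, a site for Pbx-Hox pairs, in 1 of 11 (7.96% of all). A match is only a run of letters, and no binding was measured. The promoter of Hoxa11, for the Hoxa10 row, held 0 matches to any of these motifs.

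Within the Hoxd cluster on chromosome 3 (build rn4), the 3 measured genes of the middle all fell with E2. Hoxd9 (57312123 to 57314510, plus strand, 3 exons), which patterns the lumbar spine and hindlimb, measured 28.5, 28.3 and 25.3 FPKM across CAS, and 10.8, 12.8 and 9.59 across CAS-E2. It measured 23.5, 23.1 and 24.4 FPKM across SPI, and 16.3, 10.9 and 9.29 across SPI-E2. The vehicle pools were close to one another and every E2 pool was below them. The E2 pool with the most Hoxd9, replicate 1 of SPI-E2, also had the lowest epithelial sum of the E2 pools, 561 FPKM, with a stromal sum of 733. The order did not hold throughout. Replicate 1 of CAS-E2 had 10.8 FPKM of Hoxd9, with an epithelial sum of 956 and a stromal sum of 886. Replicate 2 of CAS-E2 had 12.8, with sums of 1195 and 588. A link of Hoxd9 to these sums was not tested. The mean of Hoxd9 was 2.47-fold lower in CAS-E2 than in CAS (log2 difference -1.24, SE 0.18, limma adjusted p = 0.00068). In SPI-E2 it was 1.94-fold lower than in SPI (-0.94, SE 0.18, limma adjusted p = 0.0040). Estimated reads on Hoxd9 ran from 83 to 362 a library.

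Hoxd10 (57306064 to 57309273), a neighbour expressed in posterior mesoderm, had 18.9, 16.3 and 15.7 FPKM in CAS and 9.70, 12.2 and 8.42 in CAS-E2. In SPI it had 11.6, 20.0 and 17.7 FPKM and in SPI-E2 10.9, 7.44 and 8.04. The groups did not overlap on either diet, although replicate 1 of SPI and replicate 1 of SPI-E2 nearly met. The log2 difference was -0.70 on casein (SE 0.21, limma adjusted p = 0.021) and -0.82 on soy (SE 0.21, limma adjusted p = 0.015). The call ended on casein without CAS replicate 1 or 2 or CAS-E2 replicate 1 or 3 (adjusted p 0.051 to 0.074), and on soy without SPI or SPI-E2 replicate 2 or 3 (0.056 to 0.070) or with only the 2 groups compared in the fit (0.062). Hoxd4 (57326880 to 57343941, 6 exons), a gene of the cervical spine, had 1.07, 1.62 and 1.82 FPKM in CAS, 0.495, 0.787 and 0.353 in CAS-E2, 1.84, 2.31 and 2.40 in SPI and 1.40, 1.15 and 0.407 in SPI-E2. Again no E2 pool reached the vehicle pools of its diet. The log2 difference was -0.70 on casein (SE 0.21, limma adjusted p = 0.023) and -0.71 on soy (SE 0.21, limma adjusted p = 0.028). The call ended on casein without CAS replicate 2 or 3 or CAS-E2 replicate 1 or 3 (adjusted p 0.053 to 0.084), and on soy without SPI or SPI-E2 replicate 2 or 3 (0.056 to 0.10) or with only the 2 groups compared in the fit (0.078).

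Hoxb3, an anterior gene of the hindbrain and pharyngeal arches on chromosome 10 (85076528 to 85079216), showed the lowest adjusted p among the Hox rows on the casein diet. Its values were 4.37, 5.86 and 5.31 FPKM in CAS and 1.74, 1.71 and 1.42 in CAS-E2. In SPI they were 3.89, 3.99 and 3.02 FPKM and in SPI-E2 3.17, 3.16 and 2.98. The CAS and CAS-E2 pools were far apart, whereas the SPI and SPI-E2 pools overlapped. The mean was 3.19-fold lower in CAS-E2 than in CAS (log2 difference -1.23, SE 0.14, limma adjusted p = 0.00017) and 1.17-fold lower in SPI-E2 than in SPI (-0.17, SE 0.14, limma adjusted p = 0.38). The difference between the effects on the 2 diets was 1.06 on the log2 scale (SE 0.19, limma adjusted p = 0.11), so it did not pass. Without replicate 1 of SPI-E2, the pool with the lowest epithelial sum among the E2 pools, it was 1.05 with an adjusted p of 0.042.

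The other Hoxb rows did not share one direction. Hoxb5, from a gene of lung and gut mesenchyme (85035516 to 85037724), had 4.24, 3.81 and 5.20 FPKM in CAS, 2.17, 1.40 and 3.76 in CAS-E2, 3.26, 2.68 and 3.80 in SPI and 1.57, 2.55 and 2.40 in SPI-E2. It was lower in CAS-E2 than in CAS (-0.70, SE 0.23, limma adjusted p = 0.032), and the call ended without any 1 of 5 libraries (the 3 CAS pools and CAS-E2 replicates 1 and 2; adjusted p 0.050 to 0.13). It also ended with median-ratio scaling (0.063), with no filter on low values (0.050) and with only the 2 groups compared in the fit (0.053). On soy the difference was -0.43 (SE 0.23, limma adjusted p = 0.19).

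Hoxb7 (85017440 to 85020859), the highest of the Hoxb rows by the mean of 12 libraries though below Hoxb8 in CAS, had 6.78, 6.52 and 7.94 FPKM in CAS and 6.67, 8.66 and 19.5 in CAS-E2. It had 5.21, 3.53 and 7.10 FPKM in SPI and 7.34, 14.3 and 11.8 in SPI-E2. The E2 pools were widely spread, and CAS-E2 overlapped CAS through its replicate 1. The mean in SPI-E2 was 2.11 times that in SPI (log2 difference 0.95, SE 0.34, limma adjusted p = 0.059), which just missed the threshold, and in CAS-E2 1.64 times that in CAS (0.51, SE 0.34, limma adjusted p = 0.25). Without replicate 1 of SPI-E2 the difference on soy was 1.20 with an adjusted p of 0.021, and it also passed without replicate 1 or 3 of CAS-E2 (0.045 and 0.019), pools that enter through the shared estimate of spread alone.

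Hoxb4 and Hoxb8 were singled out after their values were seen, because the same 3 pools stood highest among the E2 pools in them as in Hoxb7. Those pools were replicate 3 of CAS-E2 and replicates 2 and 3 of SPI-E2. Hoxb4 had 5.65, 4.07 and 4.83 FPKM in these 3 and 1.47 to 2.59 in the other E2 pools. Hoxb8 had 13.4, 10.9 and 10.6 FPKM there and 3.69 to 6.13 in the other E2 pools. Hoxb5, which was lower with E2 on casein, was also highest in these pools among the E2 pools. It had 3.76, 2.55 and 2.40 FPKM there and 1.40 to 2.17 in the others, so the pattern is not particular to rows that did not fall. The epithelial marker sum was also highest in these 3 pools, at 1652, 2005 and 1982 FPKM against 561 to 1195 in the other E2 pools, and the stromal sum was lowest, at 377, 418 and 301 FPKM against 588 to 886. Hoxb8 without E2 stood at 6.98, 11.4 and 9.80 FPKM in CAS, where the epithelial sum was at most 246. The paper's read summary also gives the 3 pools named above the lowest alignment rates of the E2 pools, with the most over-represented sequences. In CAS, replicates 2 and 3 likewise aligned less well than replicate 1 and held more over-represented sequences. Whether library quality or cell composition bears on these Hoxb values was not tested. Neither Hoxb4 nor Hoxb8 passed the test of E2 on either diet. Without replicate 3 of CAS-E2, Hoxb8 was lower in CAS-E2 than in CAS (-0.99, limma adjusted p = 0.022) and higher in SPI-E2 than in SPI (0.77, limma adjusted p = 0.039). Without replicate 1 of SPI-E2, Hoxb4 was higher in SPI-E2 than in SPI (0.94, limma adjusted p = 0.012).

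**Figure D4:**
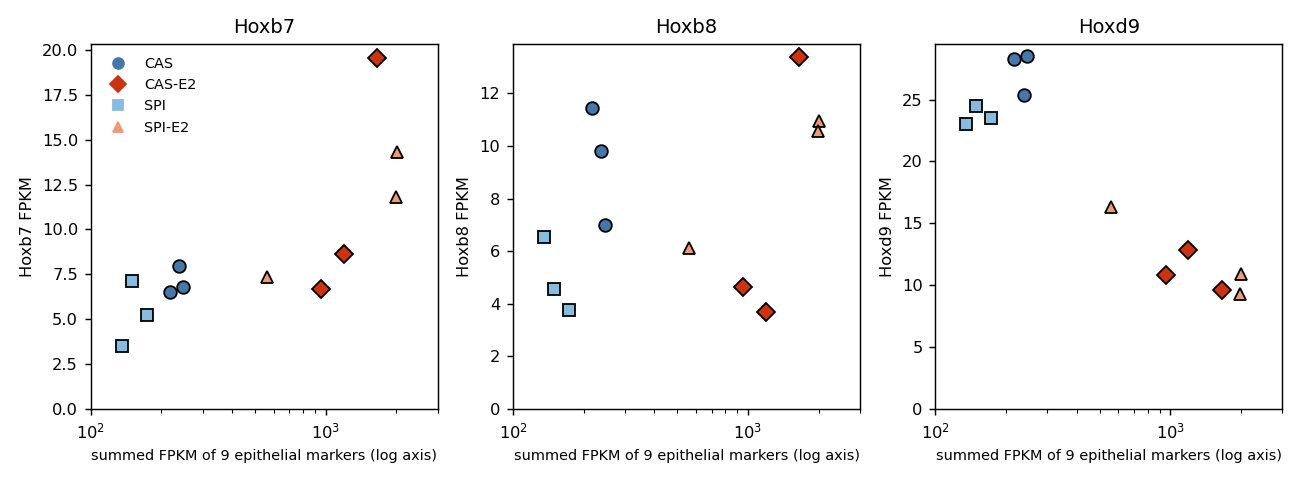
FPKM of Hoxb7, Hoxb8 and Hoxd9 in each of the 12 libraries against the summed FPKM of 9 epithelial markers on a log axis, with symbols by group. The 3 E2 pools with the highest epithelial sums, 1652 to 2005, have the highest Hoxb7, whereas Hoxd9 is at 9.29 to 16.3 in all 6 E2 pools and at 23.1 to 28.5 in the 6 vehicle pools.

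In the Hoxc cluster on chromosome 7 all levels were low. Hoxc4 (141796934 to 141799476), a gene of the cervical and thoracic spine, had the highest 12-library mean, 1.05 against 1.03 FPKM for Hoxc8, although Hoxc8 was higher in both E2 groups. Hoxc4 had 1.37, 1.52 and 1.27 FPKM in CAS, 0.590, 0.645 and 0.316 in CAS-E2, 1.55, 2.08 and 1.55 in SPI and 0.434, 0.386 and 0.857 in SPI-E2. No E2 pool reached a vehicle pool. Its mean was 2.68-fold lower with E2 on casein (log2 difference -0.66, SE 0.16, limma adjusted p = 0.0088) and 3.09-fold lower on soy (-0.81, SE 0.16, limma adjusted p = 0.0048). These levels rest on an estimated 4 to 37 reads a library. Hoxc5 had 0.319, 0.841 and 1.93 FPKM in CAS and 0.761, 0.303 and 0.175 in CAS-E2, which overlapped. It had 1.56, 0.996 and 1.43 FPKM in SPI and 0.533, 0.163 and 0.345 in SPI-E2, which did not (-0.79, SE 0.27, limma adjusted p = 0.046). That call ended with no filter on low values, with a pseudocount of 0.1 and without any 1 of 7 libraries. Hoxc8, at 0.144 to 2.06 FPKM, passed no test, and Hoxc9 was too low to test.

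In the Hoxa cluster on chromosome 4, Hoxa10 (Hoxa11) was by far the highest. It lies at 80542417 to 80546079 on the minus strand, with 2 exons. Its values were 20.3, 21.4 and 14.6 FPKM in CAS, 8.86, 13.9 and 8.27 in CAS-E2, 10.5, 13.8 and 16.9 in SPI and 21.6, 10.7 and 6.31 in SPI-E2. Every CAS-E2 pool was below every CAS pool, while SPI-E2 held both the highest and the lowest of all 12 values. The mean was 1.81-fold lower in CAS-E2 than in CAS (log2 difference -0.82, SE 0.35, limma adjusted p = 0.083), and the difference on soy was -0.22 (SE 0.35, limma adjusted p = 0.66). Without replicate 1 of SPI-E2 the casein difference had an adjusted p of 0.022, and without its replicate 3 one of 0.039. It also passed with only the 2 groups compared in the fit (0.020) and with library weights (0.015).

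An antisense RNA overlaps this row. RGD1564419, now Hoxa11-as in RefSeq, runs on the plus strand from 80545394 to 80550077, and 686 of the 2253 exon bases of the Hoxa10 row (30.4%) belong to both. The libraries do not mark strand, so reads in the shared bases cannot be assigned to either gene. The antisense row had 11.5, 14.5 and 8.94 FPKM in CAS, 4.08, 5.61 and 2.37 in CAS-E2, 5.12, 8.37 and 10.9 in SPI and 12.6, 6.99 and 2.33 in SPI-E2. The libraries that were high or low in SPI-E2 were the same as for the Hoxa10 row. It was lower in CAS-E2 than in CAS (-1.36, SE 0.44, limma adjusted p = 0.029) and differed by -0.31 on soy (SE 0.44, limma adjusted p = 0.63). The Hoxa10 row made up 59.6% to 77.7% of the FPKM of the pair.

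**Figure D5:**
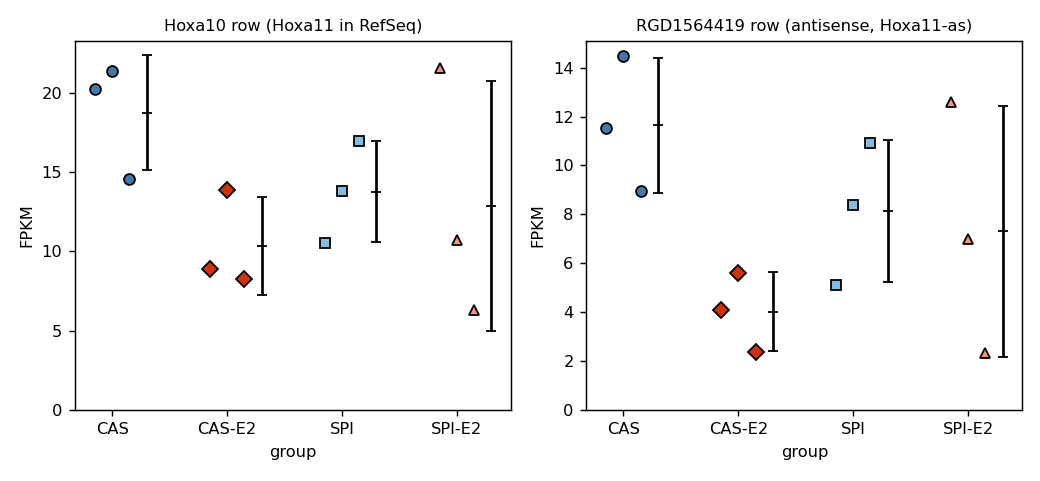
FPKM of the Hoxa10 row (Hoxa11 in RefSeq) and of the overlapping antisense row RGD1564419 in each library by group, with the mean and SD beside the symbols. Both are lower in all 3 CAS-E2 pools than in any CAS pool, and both spread widest in SPI-E2, from 6.31 to 21.6 and from 2.33 to 12.6 FPKM.

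Hoxa6 and Hoxa9 (Hoxa7), neighbours in the middle of the cluster that pattern the thoracic spine, were near 1 FPKM. Hoxa6 (80506290 to 80508743) had 1.40, 1.88 and 1.87 FPKM in CAS, 1.02, 0.894 and 0.109 in CAS-E2, 1.95, 1.56 and 2.76 in SPI and 0.701, 1.53 and 0.648 in SPI-E2. It was lower with E2 on casein (-0.74, SE 0.25, limma adjusted p = 0.036), with -0.67 on soy (SE 0.25, limma adjusted p = 0.067). Hoxa9 (Hoxa7), at 80515622 to 80517521, had 1.71, 1.36 and 0.667 FPKM in CAS, 0.389, 0.696 and 0.521 in CAS-E2, 1.30, 2.38 and 1.61 in SPI and 0.763, 0.145 and 0.411 in SPI-E2. It was lower with E2 on soy (-0.94, SE 0.23, limma adjusted p = 0.011), with -0.52 on casein (SE 0.23, limma adjusted p = 0.085). Hoxa6 rests on at most 18 estimated reads a library and Hoxa9 (Hoxa7) on at most 16. The Hoxa6 call on casein ended without any 1 CAS pool or replicate 3 of CAS-E2 (adjusted p 0.051 to 0.13), and that of Hoxa9 (Hoxa7) on soy without replicate 2 of SPI or of SPI-E2 (0.054 and 0.055).

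Diet alone moved no Hox row past the test. In SPI against CAS, 0 of 14 rows passed, against 0.0195% of all genes, and 1 (Hoxb3) had an unadjusted p under 0.05. Hoxb3 was 5.18 ± 0.75 FPKM in CAS and 3.63 ± 0.53 in SPI (log2 difference -0.42, SE 0.14, limma adjusted p = 0.31). Hoxb8 was 9.41 ± 2.26 FPKM in CAS and 4.95 ± 1.43 in SPI (-0.81, SE 0.37, limma adjusted p = 0.39). With libraries weighted by their quality as limma estimates it, both passed (adjusted p = 0.016 and 0.025). With these weights 1395 of all 10279 genes were lower in SPI than in CAS. The 2 of 14 Hox rows lay near that share, which is no result about the Hox rows. The median log2 difference of all genes between SPI and CAS was -0.16 and that of the 14 rows was -0.14. Scaling by median ratios moved these to -0.0014 and 0.06, a shift of all genes alike.

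With E2 on both sides, SPI-E2 against CAS-E2, again 0 of 14 rows passed, against 0.00973% of all genes, and 1 (Hoxb3) had an unadjusted p under 0.05. Hoxb3 was 1.62 ± 0.18 FPKM in CAS-E2 and 3.10 ± 0.11 in SPI-E2, with no overlap (log2 difference 0.65, SE 0.14, limma adjusted p = 0.25). For Hoxd9 the difference was 0.10 with a 95% interval of -0.30 to 0.50, and for Hoxd10 it was -0.19 with an interval of -0.64 to 0.27. The intervals leave room for differences of that size in either direction. In the test of whether the E2 effect differed between diets, 0 of 14 rows passed, against 0% of all genes, and 2 (Hoxb3 and Hoxb8) had an unadjusted p under 0.05. Hoxb8 showed a difference of 1.27 (SE 0.53, limma adjusted p = 0.29).

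The remaining comparison, SPI-E2 against CAS, shares its CAS pools with the E2 comparison on casein. In it 5 of 14 rows were lower (Hoxb3, Hoxb5, Hoxc4, Hoxd9 and Hoxd10), against 14.9% of all genes, and 0 were higher, against 14.4%. Here too the place of Hoxc4 was in part built into the filter. Hoxd9 was the 1 row lower by 2-fold, against 3.89% of all genes (-1.14, SE 0.18, limma adjusted p = 0.0019). That count was 0 without replicate 3 of SPI-E2 and 3 without its replicate 1, against 172 and 748 of all genes. The call of Hoxb5 ended without any 1 CAS pool or SPI-E2 replicate 1 or 3, and that of Hoxc4 without replicate 2 of CAS or of SPI-E2 (adjusted p 0.051 to 0.096) or with only the 2 groups compared (0.053).

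Genes that work with or on the Hox clusters were taken from lists and described the same way. The TALE cofactors include Pbx and Meis proteins, and of 8 tested, 5 were lower in CAS-E2 than in CAS and 0 were higher, against 22.0% and 17.1% of all genes, with a median log2 difference of -0.66. Meis2 changed by -2.08 (SE 0.33, limma adjusted p = 0.00096) and Pbx2 by -0.65 (SE 0.13, limma adjusted p = 0.0028). On soy 1 of 8 was lower and 0 were higher, against 6.57% and 21.1% of all genes. Polycomb and Trithorax proteins maintain the silent and active states of Hox clusters. Of 22 tested, 11 were lower in CAS-E2, against 22.0% of all genes, and 0 were higher, against 17.1% (median -0.39), with Kdm6b, which removes the repressive H3K27 methyl mark, at -1.44 (SE 0.17, limma adjusted p = 0.00022), the Polycomb subunit Cbx7 at -1.53 (SE 0.20, limma adjusted p = 0.00041) and Cbx6 at -1.21 (SE 0.24, limma adjusted p = 0.0030). On soy 3 of 22 were lower, against 6.57% of all genes, and 0 were higher, against 21.1%.

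Retinoic acid is a classical inducer of Hox genes. Of 8 tested genes of retinoid synthesis, breakdown and reception, 5 were lower in CAS-E2, against 22.0% of all genes, and 1 was higher, against 17.1%. The 5 include Cyp26b1, which breaks down retinoic acid (-0.62, SE 0.18, limma adjusted p = 0.017), so they do not share one role. Aldh1a2, a retinoic acid synthase, was higher (1.17, SE 0.30, limma adjusted p = 0.0094), while the related Aldh1a1 (-1.22, SE 0.29, limma adjusted p = 0.0066) and the receptor Rxrb (-0.93, SE 0.21, limma adjusted p = 0.0053) were lower. On soy 1 of 8 was higher and 1 lower, near the 21.1% and 6.57% of all genes. Among 12 tested homeobox and paired box genes of the female tract outside the clusters, 3 were lower and 1 was higher on casein, against 22.0% and 17.1% of all genes, with Msx2 at -1.01 (SE 0.24, limma adjusted p = 0.0065), Pax8, an epithelial factor, at 0.77 (SE 0.24, limma adjusted p = 0.025) and Msx1, the highest, at -0.60 (SE 0.22, limma adjusted p = 0.051). On soy 3 were lower and 1 was higher, against 6.57% and 21.1%. Of 6 tested genes reported as targets of HOXA10 or HOXA11, 2 were lower and 0 higher on casein, against 22.0% and 17.1% of all genes, namely the prostaglandin receptor Ptger3 at -2.56 (SE 0.55, limma adjusted p = 0.0043) and the homeobox gene Emx2 at -0.40 (SE 0.15, limma adjusted p = 0.047). Fkbp4, the highest of this list, differed by 0.16 (SE 0.18, limma adjusted p = 0.51). On soy 0 were lower and 1 was higher, against 6.57% and 21.1%.

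Rows that are not Hox genes but lie in the clusters or within 300 kb of them numbered 21, of which 12 were tested. On casein 2 were lower with E2 and 2 were higher, which is near the 22.0% and 17.1% of all genes and is no result about these neighbours. The lower ones were RGD1564419 and Calcoco1, a coactivator gene beside the Hoxc cluster (-0.83, limma adjusted p = 0.00082). The higher ones were Skap2 beside Hoxa (1.09, limma adjusted p = 0.012) and Snf8 beside Hoxb (1.05, limma adjusted p = 0.0029). On soy 5 were higher (Skap2, Snf8, Atp5g1, Ube2z and Mtx2) and 0 were lower, against 21.1% and 6.57% of all genes. Mtx2, next to the Hoxd cluster, had a log2 difference of 0.68 on soy (limma adjusted p = 0.012), where Hoxd4, Hoxd9 and Hoxd10 were lower.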

How the data were processed

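Poly-A RNA of whole uterus was sequenced as 36-base single reads without strand marking. The authors aligned the reads to build rn4 (per the labels' processing notes with TopHat2 2.0.9 and Bowtie2 2.1.0, after CASAVA 1.7) and the deposited values are FPKM of RefSeq transcripts from Cufflinks 2.1.1. Their test with Cuffdiff needs reads and was not repeated. FPKM was summed over the transcripts of each gene name, so 113 names that occur on more than 1 chromosome were summed too.

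limma 3.58.1 (R 4.3.3) was fitted to log2(FPKM + 1) with 4 group means over all 12 libraries (8 residual degrees of freedom), a variance trend and Benjamini-Hochberg adjustment. Genes needed 1 FPKM in 3 libraries. The adjusted p threshold was 0.05, with and without a 2-fold cutoff. In data simulated for CAS-E2 against CAS over 10279 genes, 72% of genes changed 2-fold on the fitted scale and 93% of those changed 4-fold passed. Far fewer genes were changed there than passed in the data, and the simulated noise was independent between genes. The rates thus need not hold for the data, nor for fold changes of FPKM in rows near 1 FPKM. Depth is implied by the ratio of coverage to FPKM. Reads on a gene were estimated from coverage with an effective length 202 bases below the transcript length, under which 87.9% of 107 values between 0 and 25 reads were within 0.05 of a whole number. The SEs and intervals given come from the spread between pools, and the read estimates carry none. Replicates are pools of different uteri.

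The members and gene lists were chosen with earlier results of these data known. Values per library are given for Hox rows that passed either rule with E2, for the highest row of each cluster and for Hoxa10 (Hoxa11). From each list the 2 genes with the lowest adjusted p on casein and the highest gene are named, and Cyp26b1 besides. Values of 1 Hox row and of 1 gene of a list are not reported here. Alternatives were the pseudocount, filter, scaling, samples in the fit, library weights, variance trend, a replicate block and leaving out each library. Same-numbered libraries deviated together (r = 0.27, 0.12 and 0.34) for CAS-E2 and SPI-E2 alone. That pairing rests on the data, and the block changed no Hox call in that comparison.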

Additional observations from a re-analysis of the deposited data

Results flagged for a closer look

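Rows of the clusters outside the tests showed signal in E2 pools above the CAS libraries, in which they were at 0. The row of the microRNA Mir10a (Hoxb cluster) had 39.3 FPKM in replicate 1 of SPI-E2 and 0 in the other 11 libraries. The Mir615 row (Hoxc cluster) had 63.0 FPKM in replicate 2 of CAS-E2 and 0 elsewhere. These rows are 110 and 92 bases long, and no replicate of either group shared the signal. Evx1, a homeobox gene beside the Hoxa cluster, had 0.0653 and 0.156 FPKM in replicates 1 and 2 of CAS-E2 and 0.0976 in replicate 2 of SPI-E2, and 0 elsewhere. A microRNA row of the Hoxa cluster that was tested went the other way. Mir196b had 106 and 318 FPKM in replicates 1 and 2 of CAS and 82.5 in replicate 2 of SPI, and 0 in the other 9 libraries, all 6 E2 pools among them (CAS-E2 against CAS, limma adjusted p = 0.058). Groups of 3 libraries were not tested for outliers.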

How the results depend on the processing

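Of 18 Hox differences that passed an adjusted p under 0.05, 8 kept the call under all alternatives in which the row was tested, and 0 changed sign. Those were Hoxb3, Hoxc4 and Hoxd9 in CAS-E2 against CAS, Hoxc4 and Hoxd9 in SPI-E2 against SPI, and Hoxb3, Hoxd9 and Hoxd10 in SPI-E2 against CAS. Of 66 that did not pass, 19 passed under at least 1 alternative. Counts of rows lower by the 2-fold rule moved as follows, and the cause was not tested where the setting itself does not give it. Counts by the same rule over all 10279 genes stand in brackets. With a pseudocount of 0.1 the Hox counts were 5 (1145) in CAS-E2 against CAS, 3 (726) in SPI-E2 against CAS and 3 (392) in SPI-E2 against SPI. With 0.5 the first and the last were 3 (947 and 304). Asking for 5 FPKM in 3 libraries, which leaves 5 Hox rows, gave 1 in CAS-E2 against CAS (404 of 6164). Without the fold cutoff the main counts were 7, 5 and 6 (2262, 1534 and 675). Median-ratio and upper-quartile scaling gave 2 and 3 in SPI-E2 against SPI (295 and 447). Library weights gave 3 in CAS-E2 against CAS (631) and 2 in SPI-E2 against CAS (659). They gave 2 lower and 1 higher in SPI-E2 against SPI (337 and 1099). The E2 effect on soy minus that on casein was then above 0 for 2 rows (133), Hoxb3 and Hoxb8. For Hoxb3 this means a smaller fall with E2 on soy. Leaving out 1 library gave 0 to 3 lower in SPI-E2 against CAS (172 to 748). In SPI-E2 against SPI it gave 0 to 2 lower (62 to 456) and 0 to 1 higher (607 to 1284). For the E2 effect on soy minus that on casein it gave 0 to 1 rows above 0 (0 to 84). The summed FPKM in SPI became 20.9 (Hoxb, median-ratio scaling), 22.3 (Hoxb, upper-quartile scaling) and 49.3 (Hoxd, upper-quartile scaling).

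A replicate block left the 2-fold counts of lower rows at 2, 1 and 0 in CAS-E2 against CAS, SPI-E2 against CAS and SPI-E2 against SPI. In the last, Hoxb7 had an adjusted p of 0.032 with the block and Hoxc5 of 0.055, but same-numbered libraries there share a number only. It changed no other Hox call. Depth limits the rows near 1 FPKM, such as Hoxa6 with at most 18 estimated reads a library. Calls also began for Hoxa6 on soy without CAS-E2 replicate 3 (adjusted p 0.030) and for Hoxc5 on casein without CAS replicate 1 (0.047). For Hoxa9 (Hoxa7) they began on casein and in SPI-E2 against CAS without CAS replicate 3 (0.036 and 0.032). In SPI-E2 against CAS they began for Hoxa10 (Hoxa11) and Hoxa9 (Hoxa7) without SPI-E2 replicate 1 (0.010 and 0.019). There they also began for Hoxc5 without CAS replicate 1 (0.0499).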
